A study of Mus musculus with 9 samples.

Results

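The genes described here are the mouse Zfp genes that testis expressed at a substantial level: genes whose symbol is Zfp followed by digits only, and whose mean raw level in the wild-type (WT) libraries was at least 5 CPM (counts scaled to the total count of the library). The count table held 56691 genes, of which 374 carried such a symbol and 279 passed the level. The other 95 Zfp genes lay under it. The genes closest to the threshold were Zfp454, Zfp69 and Zfp872 just inside it, at 5.10, 5.13 and 5.14 CPM in WT, and Zfp551, Zfp628 and Zfp469 just outside it, at 4.93, 4.93 and 4.89 CPM. The genes were thus chosen by their WT level, so that level is a description, and counts of genes called against WT are given as descriptions too. No library of the knockout groups entered the rule, although WT libraries shared in the estimate of spread for their comparison.

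Zfp is the mouse symbol for zinc-finger proteins, most of which read DNA through a row of C2H2 fingers, each a short loop held by a zinc ion between cysteines and histidines. Many of them carry a KRAB domain in front of the fingers. KRAB recruits the corepressor TRIM28, which in turn brings the histone methyltransferase SETDB1 and HP1 proteins and so lays down repressive chromatin on transposable elements and at imprinted loci. KRAB zinc-finger genes lie in clusters that grew by tandem duplication, and neighbours in a cluster often have similar sequences. Zfp genes without KRAB include transcription factors, splicing factors and RNA-binding proteins that are not related in function.

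RNA was measured in whole testes of mice at postnatal day 7, in 3 libraries for each of 3 groups. The groups were double knockouts lacking Gm1142 and Gm4779 (DKO, Gm1142-/- Gm4779-/-), mice labelled as knockouts of Gm1142 alone (Gm1142-/-), and WT. The library kit captured polyadenylated RNA on oligo dT beads. The labels state neither the strain, the lesion in each gene nor whether replicates were separate animals, so p-values measure the spread of these libraries, part of which may be technical. Total counts ran between 4370124 and 8359594 in DKO, between 4597447 and 5243756 in libraries labelled Gm1142 knockout and between 4514237 and 5091624 in WT.

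The targeted genes checked the labels first. Gm4779 had 0 reads in each DKO library, against 88, 61 and 59 reads in libraries labelled Gm1142 knockout and 42, 48 and 53 reads in WT. Gm1142, listed in the file as 8030474K03Rik, also had 0 reads in each DKO library. In the libraries labelled Gm1142 knockout it had 65, 46 and 50 reads, against 56, 50 and 41 reads in WT, which differed by 0.25 ± 0.31 in log2 units (SE; edgeR quasi-likelihood test, adjusted p = 0.624). The Gm1142 transcript was therefore not detectably lower in the group labelled as its knockout, and every direction below for that group is a direction of libraries known by their label. Markers of Sertoli, Leydig and germ cells were detected in all 9 libraries.

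The 279 genes lay on 20 chromosomes, with 70 on chromosome 7, 37 on chromosome 17, 21 on chromosome 8 and 20 on chromosome 13. With a cluster defined as a run of at least 3 Zfp genes whose starts lay within 500 kb of the next, 29 clusters held 163 of them. Translated reference transcripts (GENCODE M21) carried a KRAB pattern in 156 genes and none in 121, and the remaining 2 had no coding transcript. The number of C2H2 fingers found by pattern ran between 0 and 36, with a median of 11 over all of them, 12 in those with KRAB and 8 in those without. Transcripts with KRAB were poorer in G and C, at a median of 42.1% against 49.7% in those without. In 57 genes at least 5% of exonic words of 50 bases also occurred in another gene, and in 47 at least 5% of exonic bases overlapped another gene. The treatment of reads that match several genes, and of strand, is not given in the sources used here, so the levels of those genes are less certain.

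Compared per kilobase of exon in WT, the most abundant were Zfp652 and Zfp451 at 52.6 and 52.1 CPM per kb, followed by Zfp809 at 43.5, Zfp869 at 39.4, Zfp251 at 36.4, Zfp740 at 32.6, Zfp326 at 29.9 and Zfp692 at 26.5 CPM per kb. These belong to different classes. Zfp451 is a SUMO ligase, Zfp326 a splicing-linked factor and Zfp809 a KRAB protein known for silencing retroviral DNA in mouse embryonic cells. At the other end, Zfp407 and Zfp697 had 0.709 and 0.758 CPM per kb.

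Summed over the 279 genes, the level was lower in libraries labelled Gm1142 knockout than in both other groups. In DKO they held 0.9995%, 1.07% and 0.948% of all counts, in libraries labelled Gm1142 knockout 0.868%, 0.797% and 0.831%, and in WT 1.04%, 0.9999% and 1.001%. Each library labelled Gm1142 knockout lay below every DKO and every WT library, while DKO and WT overlapped. Mitochondrially encoded transcripts moved the other way, holding 27.1 to 32.9% of counts in DKO, 32.5 to 38.9% in libraries labelled Gm1142 knockout and 29.4 to 32.7% in WT. Their part in the result was not tested beyond leaving them out. With those transcripts left out, the 279 genes held 1.43% ± 0.0285 in DKO, 1.29% ± 0.0121 in libraries labelled Gm1142 knockout and 1.47% ± 0.0286 in WT (SD, n = 3 each). In bulk testis, fewer cells that express a gene and less RNA of it per cell cannot be told apart.

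**Figure D1:**
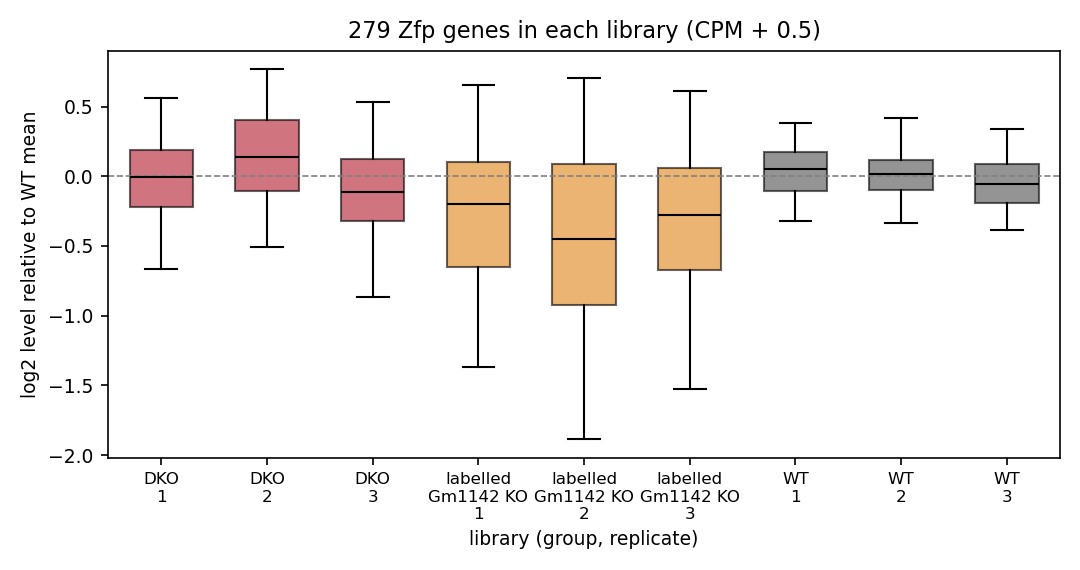
Level of the 279 Zfp genes in each of the 9 libraries, as the log2 of CPM + 0.5 relative to each gene's WT mean, with boxes for the quartiles and the median and whiskers from the 5 to the 95 percentile. The medians were -0.00, 0.14 and -0.11 in DKO, -0.20, -0.45 and -0.28 in libraries labelled Gm1142 knockout and 0.05, 0.01 and -0.05 in WT, so the labelled libraries lie lowest.

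Between the knockout groups, 71 of the 279 genes were higher in DKO than in libraries labelled Gm1142 knockout, 16 were lower and 192 did not pass the test (edgeR quasi-likelihood test, adjusted p under 0.05 over 17251 genes). These are 25.4% and 5.73% of them. Over all genes tested, 9.07% were higher and 10.1% lower, and over the tested genes with a WT mean of at least 5 CPM, 11.2% and 11.3%. The median log2 fold change was 0.37 for the 279 genes, against 0.05 for the other 12788 genes at that level, and 206 of the 279 had a positive value. Among the genes called, the groups did not overlap in 62 of the 71 and in 15 of the 16. Passing the test favours groups that do not overlap, so these counts add no support to the calls. Leaving out DKO replicate 2, the deepest library, reduced the number called higher to 38, and leaving out that library together with replicate 2 of libraries labelled Gm1142 knockout reduced it to 36. The share of tested genes with a WT mean of at least 5 CPM called higher also fell, to 6.87% and 6.67%. Fitted on the knockout groups alone, without the WT libraries, the comparison called 56 higher and 14 lower, with a median of 0.38. In that fit 8.63% of the genes at that WT level were higher and 9.24% lower.

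With a smooth trend of fold change on GC content and transcript length removed from all genes, 40 of the 279 were higher in DKO and 30 lower, with a median of 0.15, where 5.31% of the tested genes with a WT mean of at least 5 CPM were higher and 19.1% lower. The same step moved the median of all tested genes with a WT mean of at least 5 CPM to -0.15, against 0.05 without it, so the 279 lay 0.30 above that median with the trend removed and 0.32 above it without.

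Against WT, 13 of the 279 genes were higher and 60 lower in libraries labelled Gm1142 knockout, and 206 did not pass the test. That is 4.66% higher and 21.5% lower, where the shares were 10.2% and 8.38% over all genes tested and 11.3% and 10.5% over the tested genes with a WT mean of at least 5 CPM. The median log2 fold change was -0.33, against -0.03 for the other genes at that level. Groups did not overlap in 12 of the 13 and 59 of the 60, which adds no support to the calls either. The number called higher was 8 without replicate 2 or without replicate 3 of libraries labelled Gm1142 knockout and 6 without WT replicate 3. Of the tested genes with a WT mean of at least 5 CPM, 8.4%, 7.91% and 8.15% were higher in those 3 fits. The number called lower was 36 without WT replicate 1, where 6.7% of the genes at that level were lower. With the GC and length trends removed, 23 were higher and 41 lower, with a median of -0.19. Of the tested genes with a WT mean of at least 5 CPM, 17.1% were then higher and 6.53% lower, with a median of 0.13. This comparison and the one between the knockout groups share the libraries labelled Gm1142 knockout, so the values of both are set side by side below and neither adds to the other.

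None of the 279 genes passed the test between DKO and WT (edgeR quasi-likelihood test). Over all genes tested, 0.0464% were higher and 0.0464% lower, and over the tested genes with a WT mean of at least 5 CPM, 0.0383% and 0.0536%. DESeq2 and limma-voom also called 0 of the 279, and 21 had an unadjusted p under 0.05 by edgeR, with the smallest adjusted p at 0.256 for Zfp324. This comparison uses the same WT libraries as the one before. The median log2 fold change was 0.02, with quartiles at -0.17 and 0.19. The lowest and the highest log2 fold change were those of Zfp114, at 4.494 ± 1.999 CPM in DKO and 9.70 ± 0.944 CPM in WT (SD, n = 3 each; edgeR log2 fold change -1.08, adjusted p = 0.415), and Zfp472, at 9.81 ± 1.45 CPM in DKO and 5.84 ± 0.372 CPM in WT (SD, n = 3 each; log2 fold change 0.76, edgeR adjusted p = 0.431).

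The genes with the largest differences between the knockout groups were KRAB zinc fingers. Zfp719, in a cluster on chromosome 7, had 13.4, 14.9 and 12.7 CPM in DKO, 1.94, 4.35 and 0.852 CPM in libraries labelled Gm1142 knockout and 12.6, 8.87 and 7.97 CPM in WT. All 3 libraries labelled Gm1142 knockout were below all others. Its log2 fold change was 2.56 ± 0.40 in DKO over the libraries labelled Gm1142 knockout (SE; edgeR adjusted p = 0.000151) and -2.09 ± 0.41 in those libraries over WT (SE; edgeR adjusted p = 0.00114). Zfp872, on chromosome 9, had 5.55, 3.61 and 2.94 CPM in DKO, 0.194, 1.02 and 1.07 CPM in libraries labelled Gm1142 knockout and 4.21, 5.72 and 5.17 CPM in WT. The lowest of these values is a single read. The corresponding log2 fold changes were 2.41 ± 0.59 (SE; edgeR adjusted p = 0.00652) and -2.73 ± 0.58 (SE; edgeR adjusted p = 0.00236); the second was the largest fall of the 279 genes against WT.

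Zfp563, on chromosome 17, had 6.89, 11.1 and 2.72 CPM in DKO, 2.33, 0.767 and 1.49 CPM in libraries labelled Gm1142 knockout and 7.66, 9.07 and 8.61 CPM in WT. Its DKO libraries ranged widely, and the call between the knockout groups (log2 fold change 2.16 ± 0.49, SE; edgeR adjusted p = 0.00422) was lost without DKO replicate 2 (adjusted p = 0.0519). The fall against WT was -2.41 ± 0.49 (SE; edgeR adjusted p = 0.00175). Zfp87, on chromosome 13, had 8.04, 19.97 and 9.74 CPM in DKO, 1.55, 1.53 and 4.26 CPM in libraries labelled Gm1142 knockout and 11.7, 10.6 and 4.74 CPM in WT, where the lowest WT library lay close above the highest of the labelled group. Its log2 fold changes were 2.37 ± 0.46 and -1.87 ± 0.47 (SE; edgeR adjusted p = 0.00117 and 0.00818). Of its exonic words 8.59% occurred in another gene and 10.4% of its exonic bases overlapped one.

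Several genes with higher counts had smaller log2 fold changes and smaller standard errors. Zfp60, a KRAB protein with 19 fingers, had 52.8, 68.6 and 74.7 CPM in DKO, 20.4, 28.4 and 30.9 CPM in libraries labelled Gm1142 knockout and 68.5, 62.5 and 69.1 CPM in WT. The labelled group stood apart from both others, with log2 fold changes of 1.30 ± 0.17 for DKO over it and -1.33 ± 0.17 for it over WT (SE; edgeR adjusted p = 3.2e-05 and 2.18e-05). Of the exonic words of Zfp60, 7.68% occurred in another gene. Zfp275, on the X chromosome and without KRAB, was singled out after its values were seen because it was abundant and had the smallest adjusted p of the 60 that fell. It had 92.0, 103 and 78.4 CPM in DKO, 39.6, 33.0 and 42.4 CPM in libraries labelled Gm1142 knockout and 98.2, 107 and 82.3 CPM in WT. Its log2 fold changes were 1.25 ± 0.15 and -1.32 ± 0.15 (SE; edgeR adjusted p = 1.22e-05 and 5.91e-06). Zfp334, on chromosome 2, had 14.2, 25.7 and 15.6 CPM in DKO, 7.19, 5.11 and 6.18 CPM in libraries labelled Gm1142 knockout and 21.4, 13.0 and 23.7 CPM in WT, with log2 fold changes of 1.59 ± 0.30 and -1.64 ± 0.30 (SE; edgeR adjusted p = 0.000848 and 0.000648). Zfp958 and Zfp790 were also lowest in the labelled group, at 12.03 ± 2.03 and 14.4 ± 2.55 CPM in DKO, 3.46 ± 0.341 and 3.88 ± 1.75 CPM in libraries labelled Gm1142 knockout and 10.1 ± 1.07 and 9.96 ± 2.15 CPM in WT (SD, n = 3 each).

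A smaller set moved in the opposite direction. Zfp951, a KRAB gene on chromosome 5 with 10 fingers, had 33.1, 25.7 and 27.4 CPM in DKO, 53.8, 82.3 and 73.3 CPM in libraries labelled Gm1142 knockout and 24.1, 19.1 and 20.7 CPM in WT. Every library labelled Gm1142 knockout was above every other library. Its log2 fold changes were -1.28 ± 0.18 for DKO over the labelled group and 1.71 ± 0.19 for that group over WT (SE; edgeR adjusted p = 5.28e-05 and 2.47e-06). Zfp369, a KRAB gene on chromosome 13 whose protein binds the p75 neurotrophin receptor, had 25.8, 26.3 and 35.6 CPM in DKO, 57.1, 79.8 and 58.6 CPM in libraries labelled Gm1142 knockout and 27.4, 20.9 and 28.4 CPM in WT. The log2 fold changes were -1.16 ± 0.18 and 1.35 ± 0.19 (SE; edgeR adjusted p = 0.00019 and 4.32e-05).

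Zfp26, with 22 fingers, had 72.7, 75.9 and 62.3 CPM in DKO, 110.1, 122.5 and 126 CPM in libraries labelled Gm1142 knockout and 76.6, 69.2 and 79.9 CPM in WT. It was higher in all 3 libraries labelled Gm1142 knockout than in any other, at log2 fold changes of -0.76 ± 0.13 and 0.67 ± 0.13 (SE; edgeR adjusted p = 0.000388 and 0.00121). Of its exonic bases 14.2% overlapped another gene. Zfp472 differed from these: it had 9.76, 11.3 and 8.38 CPM in DKO, 13.98, 14.8 and 11.9 CPM in libraries labelled Gm1142 knockout and 5.74, 5.52 and 6.25 CPM in WT, so DKO lay between the others. The rise in the labelled group over WT was 1.21 ± 0.27 in log2 units (SE; edgeR, adjusted p = 0.00361), whereas DKO against the labelled group did not pass (-0.46, edgeR adjusted p = 0.237). Zfp26, Zfp369, Zfp410, Zfp472 and Zfp951 were the 5 of the 13 higher against WT that stayed called when any single library of that comparison was left out. Of the 60 that were lower against WT, 30 stayed called in that way, and between the knockout groups 29 of 71 and 8 of 16.

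**Figure D2:**
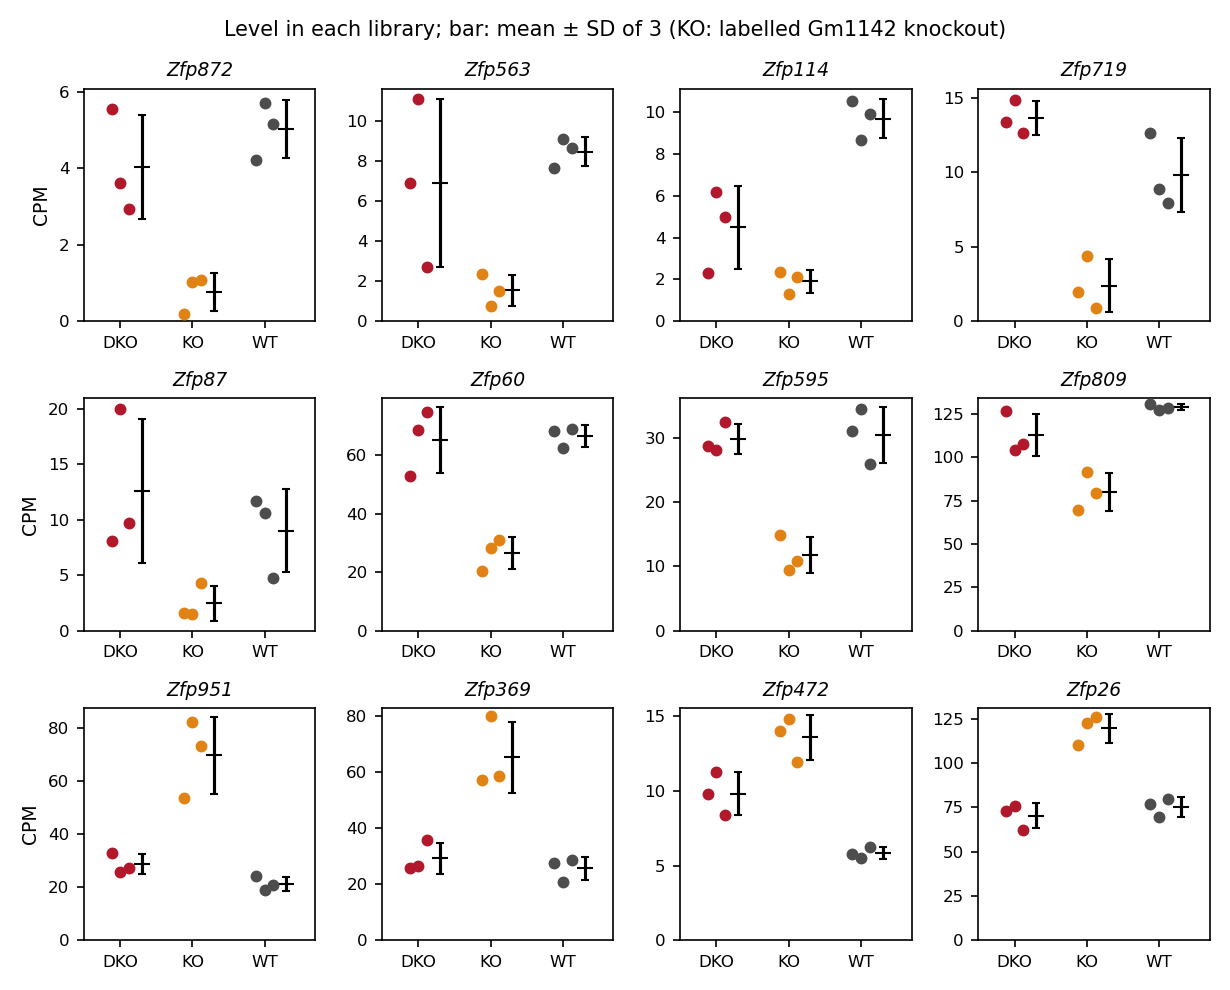
Normalised level in CPM of Zfp genes named in the text in each library of DKO, of libraries labelled Gm1142 knockout (KO) and of WT, on axes that start at 0, with bars for the mean ± SD of 3. The libraries labelled Gm1142 knockout are low for Zfp719, at 0.852 to 4.35 CPM, and high for Zfp951, at 53.8 to 82.3 CPM. For both genes every DKO library lies above every WT library, though nearer to WT than to the labelled libraries, and neither gene passed the test between DKO and WT.

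The start regions of 4 of these genes are shown because they are the largest changes in each direction and have a listed promoter, 2 lower and 2 higher in libraries labelled Gm1142 knockout. Each runs 5′ to 3′ on the strand of its gene, 250 bases before to 50 bases after the RefSeq start on build GRCm38.p6. Capitals mark a match on either strand to a GC box (GGGCGG), the core of an ETS site (CCGGAA) or a CCAAT box (CCAATCA), and matches may overlap one another. The CCAAT box was added after the promoters had been read. The windows are chr9:22187916-22188215 (+) for Zfp872, chr17:33089117-33089416 (+) for Zfp563, chr5:104859978-104860277 (-) for Zfp951 and chr17:32965581-32965880 (+) for Zfp472.
Zfp872: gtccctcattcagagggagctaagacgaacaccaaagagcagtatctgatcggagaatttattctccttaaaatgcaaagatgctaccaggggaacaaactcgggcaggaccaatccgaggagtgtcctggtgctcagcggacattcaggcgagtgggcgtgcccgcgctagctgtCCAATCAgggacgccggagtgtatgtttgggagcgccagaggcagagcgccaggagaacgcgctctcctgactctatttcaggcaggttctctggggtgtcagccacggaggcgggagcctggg
Zfp563: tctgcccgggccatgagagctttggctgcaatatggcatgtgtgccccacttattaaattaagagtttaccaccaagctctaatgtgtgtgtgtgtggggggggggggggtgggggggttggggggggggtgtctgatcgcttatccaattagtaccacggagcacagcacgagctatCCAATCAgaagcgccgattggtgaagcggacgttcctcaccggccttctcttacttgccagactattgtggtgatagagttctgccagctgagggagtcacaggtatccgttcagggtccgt
Zfp951: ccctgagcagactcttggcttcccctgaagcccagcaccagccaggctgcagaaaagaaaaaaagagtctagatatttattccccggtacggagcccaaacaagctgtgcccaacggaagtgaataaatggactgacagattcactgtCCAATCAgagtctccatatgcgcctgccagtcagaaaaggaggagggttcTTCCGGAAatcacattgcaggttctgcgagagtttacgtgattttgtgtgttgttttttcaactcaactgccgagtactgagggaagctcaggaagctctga
Zfp472: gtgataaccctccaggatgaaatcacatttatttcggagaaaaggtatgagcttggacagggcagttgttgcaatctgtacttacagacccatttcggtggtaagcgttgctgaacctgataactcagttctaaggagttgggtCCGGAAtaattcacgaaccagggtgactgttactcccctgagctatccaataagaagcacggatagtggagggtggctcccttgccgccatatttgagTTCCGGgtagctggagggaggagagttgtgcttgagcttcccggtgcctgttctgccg

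The windows of Zfp872 and Zfp563 hold 1 CCAAT box each and no GC box or ETS core. That of Zfp951 holds 1 CCAAT box and 2 ETS cores that overlap on opposite strands, and that of Zfp472 holds 2 ETS cores. Of the 229 genes of the set with a listed promoter, 18.3% had a CCAAT box, 36.2% an ETS core and 47.2% a GC box. Among 27025 promoters of all genes the shares were 8.2%, 15.2% and 35.9%, and among 9303 promoters of other tested genes with a WT mean of at least 5 CPM they were 10.5%, 28.9% and 66.6%. Within the set, 25.9% of 135 KRAB genes had a CCAAT box and 40% a GC box, against 7.53% and 57.0% of 93 without KRAB. The promoters of genes lower against WT had a CCAAT box in 16% of 50 and those of genes higher against WT in 30% of 10. A match of letters is a description of the window and not a bound site.

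By position, among clusters with at least 4 of the set, the lowest median fold changes of libraries labelled Gm1142 knockout against WT were on chromosomes 13 and 7 (coordinates on GRCm38, the reference build in use here, while the counts were made on mm39). In the cluster at chr13:66669928-67827002, 10 of the 20 Zfp genes belonged to the set, and all 10 had a positive log2 fold change in DKO over the libraries labelled Gm1142 knockout (median 1.04, 6 called higher) and a negative one in the labelled group over WT (median -1.09, 6 called lower). The called counts stayed between 5 and 7 when single libraries were left out, and with the GC and length trends removed 5 of the 10 were called between the knockout groups and 6 against WT. Zfp595 had 29.7 ± 2.33 CPM in DKO, 11.8 ± 2.85 CPM in libraries labelled Gm1142 knockout and 30.5 ± 4.35 CPM in WT. Zfp738, the most abundant there of those called, had 128 ± 7.99 CPM in DKO, 79.1 ± 10.8 CPM in libraries labelled Gm1142 knockout and 137 ± 18.1 CPM in WT (SD, n = 3 each).

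On chromosome 7, the cluster at chr7:24081924-25227507 held 11 of the set. All 11 were higher in DKO than in libraries labelled Gm1142 knockout in log2 fold change (median 0.91, 6 called) and lower in the labelled group than in WT (median -0.88, 6 called). Between the knockout groups the number called there was 1 without DKO replicate 2, and 2 and 3 without replicate 1 and replicate 3 of libraries labelled Gm1142 knockout. With the GC and length trends removed, 2 were called between the knockout groups and 4 against WT. Zfp61 held its call throughout, at 33.5 ± 5.87 CPM in DKO, 17.9 ± 0.625 CPM in libraries labelled Gm1142 knockout and 42.9 ± 4.01 CPM in WT (SD, n = 3 each). Zfp114 of the same cluster had 2.30, 6.20 and 4.98 CPM in DKO, 2.33, 1.28 and 2.13 CPM in libraries labelled Gm1142 knockout and 10.5, 8.67 and 9.91 CPM in WT. It fell by 2.31 ± 0.43 on the log2 scale in the labelled group against WT (SE; edgeR adjusted p = 0.000747) and did not pass between the knockout groups (1.22, edgeR adjusted p = 0.0573). As 29.5% of its exonic words occur in another gene, its level is uncertain.

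Zfp719 lay in another cluster of the chromosome, chr7:42473386-43618285, where 3 of 6 were called higher in DKO than in libraries labelled Gm1142 knockout (median 0.94) and 4 of 6 lower in the labelled group than in WT (median -1.03). The first count was 1 without DKO replicate 2, and the second was 1 without replicate 1 of the labelled group, without WT replicate 1 or without WT replicate 2. Each comparison called 2 with the GC and length trends removed. In the largest cluster of the chromosome, chr7:29768552-30169750 with 15 of the set, the median log2 fold changes were 0.52 in DKO over the labelled group (7 higher and 1 lower) and -0.52 in that group over WT (1 higher and 3 lower). The 7 became 4 without any single library of that comparison other than DKO replicate 3, and with the GC and length trends removed 2 were higher and 2 lower between the knockout groups and 1 higher and 1 lower against WT.

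In several further clusters the medians were nearer 0 or of the other sign. The cluster chr4:145510759-147848366, with 5 of the set, had a median of 0.23 in DKO over the labelled group (1 higher). Its median in that group over WT was -0.08, with 0 called by edgeR, DESeq2 or limma-voom and 1 at an unadjusted p under 0.05. In the cluster chr6:47819266-48623227, with 8 of the set, 0 were called by edgeR in either comparison, 1 passed an unadjusted p under 0.05 between the knockout groups and 3 against WT, and DESeq2 and limma-voom each called 1 against WT. Its median log2 fold changes were -0.17 for DKO over the libraries labelled Gm1142 knockout and 0.05 for those over WT. The cluster chr7:127233061-127885996 also had 0 of 8 called by edgeR, DESeq2 or limma-voom, with 0 at an unadjusted p under 0.05 between the knockout groups and 1 against WT, and medians of 0.17 and -0.24. In the cluster chr9:20345136-20605409, which holds Zfp26, the medians over 5 genes had the opposite signs, at -0.31 (3 of 5 negative) and 0.35 (4 of 5 positive), and moved to -0.04 and 0.15 without replicate 2 of the labelled group; the first was -0.12 without DKO replicate 3. The widest cluster, chr17:21008903-23599487 with 21 of the set, had 3 higher and 1 lower between the knockout groups (median 0.21) and 2 higher and 4 lower against WT (median -0.30), counts that changed with most single libraries left out. Over the tested genes with a WT mean of at least 5 CPM, 11.2% were higher and 11.3% lower between the knockout groups. Against WT the shares were 11.3% and 10.5%. Whether clusters differ from one another was not tested.

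Within 1 cluster, neighbours could go opposite ways. The cluster chr17:32765496-33631779, all 11 of whose Zfp genes belong to the set, holds Zfp563 and Zfp472, described above, and Zfp101. Zfp101 had 94.68 ± 14.96 CPM in DKO, 165 ± 29.1 CPM in libraries labelled Gm1142 knockout and 111.5 ± 7.43 CPM in WT (SD, n = 3 each), a log2 fold change of -0.81 for DKO over the labelled group (edgeR adjusted p = 0.000616). Against WT its rise of 0.57 in that group (edgeR adjusted p = 0.0092) did not pass without replicate 2 of the labelled group (0.0556) or WT replicate 1 (0.0577). Zfp563, which went the other way, lies 2 Zfp genes away in the same cluster. In the pair of small clusters on chromosome 8, Zfp866 and Zfp709 were lowest in the labelled group. Zfp866 had 28.2 ± 6.64 CPM in DKO, 10.8 ± 2.83 CPM in libraries labelled Gm1142 knockout and 23.3 ± 0.0551 CPM in WT, and Zfp709 had 47.3 ± 5.58, 24.5 ± 2.09 and 51.5 ± 6.87 CPM in the same order (SD, n = 3 each). Zfp869, in the cluster of Zfp866 and among the most abundant of the set, was called in no comparison, at 67.1 ± 7.98, 68.0 ± 7.65 and 62.7 ± 6.12 CPM (SD, n = 3 each). Zfp446 on chromosome 7 had 32.4 ± 3.96 CPM in DKO, 17.6 ± 1.46 CPM in libraries labelled Gm1142 knockout and 37.4 ± 2.99 CPM in WT (SD, n = 3 each). Its calls in both comparisons held with each library left out, as did those of Zfp866 and Zfp709.

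**Figure D3:**
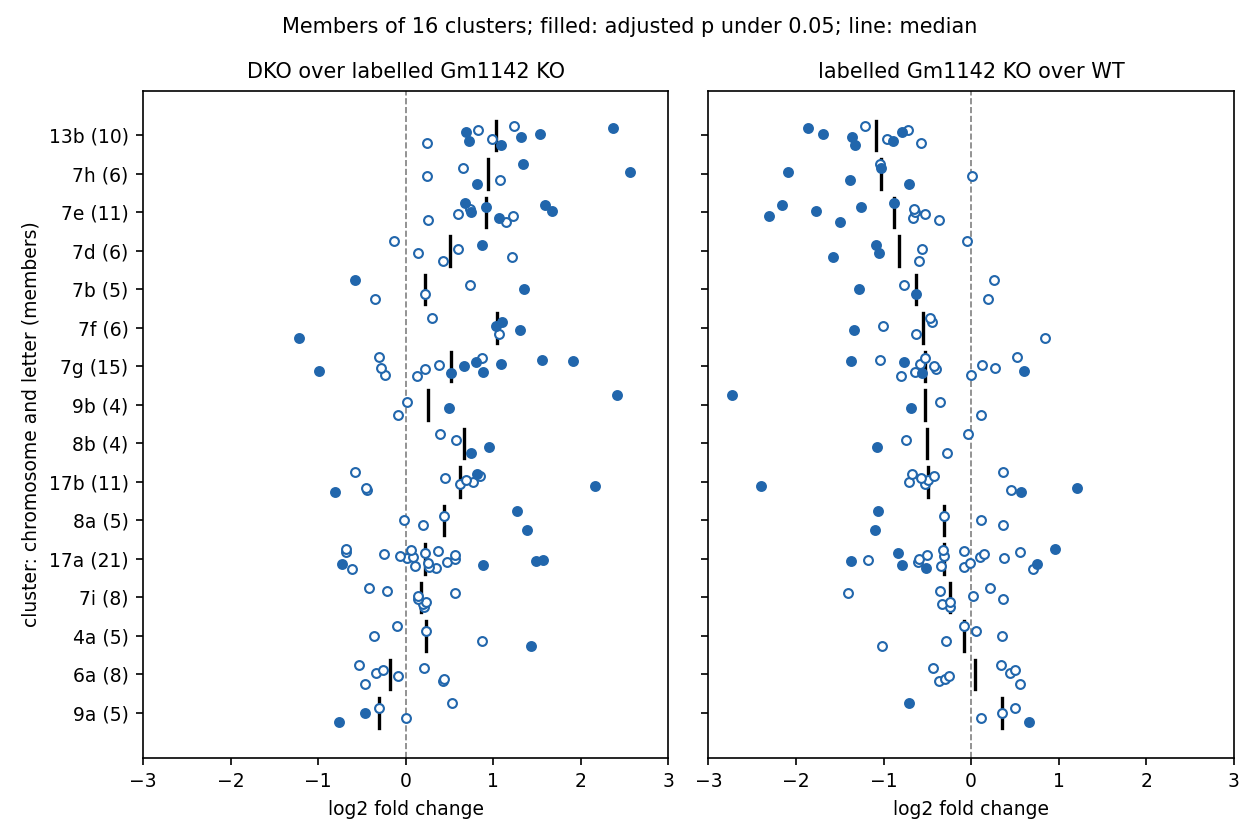
Log2 fold change of each gene of the set in the 16 clusters with at least 4 of them, for DKO over the libraries labelled Gm1142 knockout and for those libraries over WT, with filled points for an adjusted p under 0.05 and a line at each median. All 10 genes of the chromosome 13 cluster starting at 66669928 (labelled 13b) lie on one side of 0 in both panels, at medians of 1.04 and -1.09, while the chromosome 6 cluster (6a) has medians of -0.17 and 0.05.

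By chromosome, the genes on chromosome 13 had a median log2 fold change of 0.67 in DKO over the libraries labelled Gm1142 knockout (9 of 20 higher, 1 lower), and chromosome 7 one of 0.47 (22 of 70 higher, 4 lower). Chromosome 17 had 0.22 (5 of 37 higher, 2 lower) and chromosome 9 had 0.11 (2 of 17 higher, 2 lower). Over the tested genes with a WT mean of at least 5 CPM, 11.2% were higher and 11.3% lower in this comparison. Chromosome 9, at 11.8% each way, and chromosome 17, at 13.5% higher, lay near those shares. In the set, 163 genes inside clusters had a median of 0.43 with 49 higher and 8 lower, and 116 outside had 0.30 with 22 higher and 8 lower. Without DKO replicate 2 the numbers called higher were 27 inside and 11 outside, beside 6.87% of the tested genes with a WT mean of at least 5 CPM. With the GC and length trends removed, 29 were higher and 16 lower inside (median 0.22) and 11 higher and 14 lower outside (median 0.08), against a median of -0.15 for all tested genes with a WT mean of at least 5 CPM in that fit.

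By protein class, 43 of the 156 genes with a KRAB pattern were higher in DKO than in libraries labelled Gm1142 knockout and 8 lower (median 0.44), against 28 higher and 8 lower of 121 without KRAB (median 0.27). Against WT, the labelled group had 9 higher and 41 lower with KRAB (median -0.47) and 4 higher and 19 lower without (median -0.24). Over the tested genes with a WT mean of at least 5 CPM, 11.2% were higher and 11.3% lower between the knockout groups. Against WT the shares were 11.3% and 10.5%. Genes with more fingers had larger values: the median for DKO over the labelled group was 0.22, 0.28, 0.46 and 0.63 in genes with fewer than 6, 6 to 10, 11 to 14 and at least 15 fingers. The numbers called higher were 10 of 53, 14 of 81, 24 of 86 and 23 of 57 in the same order. Across the genes, the Spearman correlation of the finger number with that log2 fold change was 0.245, a description over genes that share libraries, base composition and clusters.

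The class values moved with processing. Without DKO replicate 2, 25 genes with KRAB and 13 without were higher in DKO than in libraries labelled Gm1142 knockout. Of the tested genes with a WT mean of at least 5 CPM, 6.87% were higher in that fit. Against WT, the number lower in the labelled group was 26 with KRAB without WT replicate 1, and the number higher was 5 without WT replicate 3. Without KRAB, the number lower was 8 to 12 when any library of these groups other than replicate 1 of the labelled group was left out. With the GC and length trends removed, the genes with KRAB had 27 higher and 14 lower (median 0.23) and those without had 13 higher and 16 lower (median 0.04). Those with at least 15 fingers then had 14 higher and 3 lower (median 0.43), and those with fewer than 6 had 5 higher and 10 lower (median 0.00), beside 5.31% higher, 19.1% lower and a median of -0.15 for all tested genes with a WT mean of at least 5 CPM. Against WT, that fit gave 13 higher and 32 lower with KRAB (median -0.32) and 10 higher and 9 lower without (median -0.08), beside 17.1% higher, 6.53% lower and a median of 0.13. WT level moved with the fold change too: over the genes, its Spearman correlation with DKO over the labelled group was -0.297. The part of level, GC content and depth in the differences between classes was not tested.

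**Figure D4:**
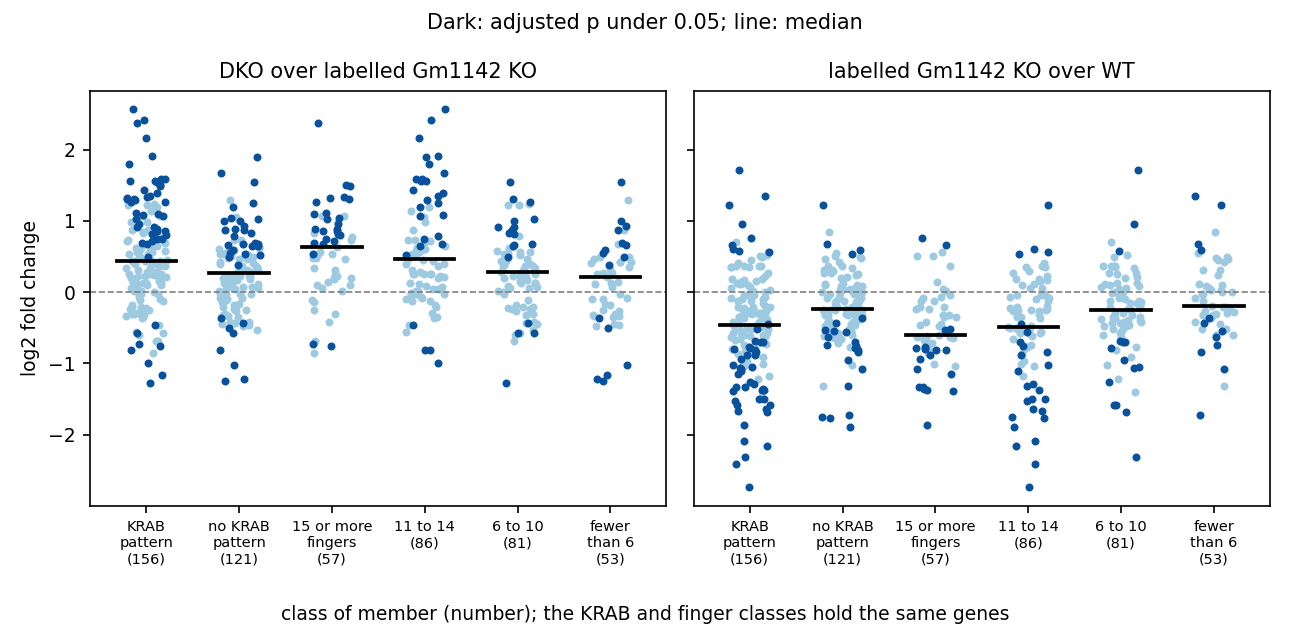
Log2 fold change of each of the genes by KRAB pattern and by number of fingers, for DKO over the libraries labelled Gm1142 knockout and for those libraries over WT, with dark points for an adjusted p under 0.05 and lines at the medians. For DKO over the labelled group the medians are 0.44 with KRAB and 0.27 without, and they run between 0.22 with fewer than 6 fingers and 0.63 with at least 15.

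KRAB genes of known function moved in both directions. Of 13 in the set, 2 were higher and 3 lower in DKO than in libraries labelled Gm1142 knockout, and in that group 3 were higher (Zfp30, Zfp68 and Zfp369) and 1 lower than in WT. Over the tested genes with a WT mean of at least 5 CPM, 11.2% were higher and 11.3% lower between the knockout groups. Against WT the shares were 11.3% and 10.5%. Of the 3 higher against WT, Zfp30 and Zfp68 were lost without WT replicate 2 (edgeR adjusted p = 0.0862 and 0.0579) or 3 (0.130 and 0.0650), and Zfp30 also without WT replicate 1 (0.0842) or replicate 2 or 3 of the labelled group (0.207 and 0.0987). Zfp57, which keeps methylation at imprinted loci, had 32.7 ± 4.87 CPM in DKO, 40.7 ± 4.45 CPM in libraries labelled Gm1142 knockout and 44.5 ± 5.20 CPM in WT (SD, n = 3 each) and was called in neither comparison. Zfp445, with a similar role, had 76.2 ± 10.7 CPM in DKO, 70.5 ± 20.8 CPM in libraries labelled Gm1142 knockout and 76.7 ± 19.7 CPM in WT, also without a call. Zfp809 had 127, 104.5 and 108 CPM in DKO, 69.5, 91.3 and 79.7 CPM in libraries labelled Gm1142 knockout and 131, 127.5 and 128 CPM in WT. The labelled group was below both others. Zfp809 fell by 0.69 ± 0.13 on the log2 scale against WT (SE; edgeR adjusted p = 0.00106), and the difference of 0.50 between the knockout groups (edgeR adjusted p = 0.0121) was lost without DKO replicate 1 (adjusted p = 0.0728), without replicate 1 of the labelled group (0.0554) and with the GC and length trends removed (0.247). Zfp568, which represses a placental Igf2 transcript, had 20.1, 31.4 and 19.7 CPM in DKO, 11.9, 5.37 and 16.2 CPM in libraries labelled Gm1142 knockout and 24.7, 12.6 and 13.1 CPM in WT. It was called higher in DKO than in the labelled group (1.09 ± 0.32, SE; edgeR adjusted p = 0.0223), a call lost without DKO replicate 2 (adjusted p = 0.146) or replicate 2 of the labelled group (0.0929).

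Of 19 C2H2 transcription regulators without KRAB, 6 were higher in DKO than in libraries labelled Gm1142 knockout (Zfp131, Zfp281, Zfp292, Zfp384, Zfp638 and Zfp711) and 0 lower, at a median log2 fold change of 0.49. Against WT, 2 of them (Zfp384 and Zfp638) were lower in the labelled group. Over the tested genes with a WT mean of at least 5 CPM, 11.2% were higher and 11.3% lower between the knockout groups. Against WT the shares were 11.3% and 10.5%. Zfp384, a nuclear matrix transcription factor, had 91.1, 91.2 and 118 CPM in DKO, 65.1, 61.6 and 63.5 CPM in libraries labelled Gm1142 knockout and 102, 104 and 102 CPM in WT. The labelled group overlapped neither other group, at log2 fold changes of 0.65 ± 0.13 for DKO over the labelled group and -0.70 ± 0.13 for it over WT (SE; edgeR adjusted p = 0.00179 and 0.00102). Zfp711, an X-linked partner of the histone demethylase PHF8 in human, had 56.1 ± 6.76 CPM in DKO, 35.6 ± 8.43 CPM in libraries labelled Gm1142 knockout and 41.0 ± 3.22 CPM in WT (SD, n = 3 each). Its call between the knockout groups (edgeR adjusted p = 0.0116) was lost without replicate 2 of the labelled group (0.0623). The calls of Zfp131, Zfp281 and Zfp292 were lost without DKO replicate 2 (edgeR adjusted p = 0.0608, 0.133 and 0.129), those of Zfp281 and Zfp292 also without replicate 2 of the labelled group (0.0816 and 0.0629), and that of Zfp281 without DKO replicate 1 (0.0568). The call of Zfp638 against WT held only with replicate 2 of the labelled group left out, with adjusted p between 0.0663 and 0.125 in the other 5 cases. Removing the GC and length trends lost 4 of the 6 calls between the knockout groups: those of Zfp131 (0.117), Zfp384 (0.0584), Zfp638 (0.263) and Zfp711 (0.0866).

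Of 13 genes with other functions, 4 were higher (Zfp207, Zfp330, Zfp346 and Zfp830) and 1 lower (Zfp36) in DKO than in libraries labelled Gm1142 knockout, and 2 (Zfp207 and Zfp830) were lower in that group than in WT. Over the tested genes with a WT mean of at least 5 CPM, 11.2% were higher and 11.3% lower between the knockout groups. Against WT the shares were 11.3% and 10.5%. Zfp207, which binds microtubules and the checkpoint protein BUB3 at mitosis, had 186 ± 29.5 CPM in DKO, 127 ± 19.0 CPM in libraries labelled Gm1142 knockout and 171 ± 18.6 CPM in WT (SD, n = 3 each). Between the knockout groups it differed by 0.55 on the log2 scale (edgeR adjusted p = 0.00934), a call lost without DKO replicate 2 (adjusted p = 0.0629). Zfp36, or tristetraprolin, which directs the decay of AU-rich mRNAs, had 4.89 ± 1.55 CPM in DKO, 11.3 ± 4.33 CPM in libraries labelled Gm1142 knockout and 6.31 ± 1.36 CPM in WT (SD, n = 3 each). Its log2 fold change of -1.22 between the knockout groups (edgeR adjusted p = 0.0193) did not pass without DKO replicate 1 (0.0749), DKO replicate 2 (0.0599) or replicate 1 of the labelled group (0.133). Between the knockout groups, Zfp346 was lost without DKO replicate 3 (0.0681) or replicate 1 of the labelled group (0.0843), Zfp830 without DKO replicate 1 (0.0571), DKO replicate 2 (0.133) or replicate 3 of the labelled group (0.133), and Zfp330 without any single library other than replicate 1 of the labelled group (0.0503 to 0.152). Zfp207, Zfp330 and Zfp346 were also lost with the GC and length trends removed (0.126, 0.509 and 0.163). Against WT, Zfp830 was lost without replicate 3 of the labelled group (0.0801) or WT replicate 1 (0.0697), and Zfp207 without replicate 2 or 3 of the labelled group (0.133 and 0.0798) or WT replicate 1 or 2 (0.0978 and 0.175).

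Zfp410, which activates transcription of the chromatin remodeller gene Chd4, had 101, 108 and 115 CPM in DKO, 129, 174 and 155 CPM in libraries labelled Gm1142 knockout and 106, 96.0 and 102 CPM in WT. All libraries labelled Gm1142 knockout were above the rest, at log2 fold changes of -0.50 ± 0.13 for DKO over them and 0.59 ± 0.13 for them over WT (SE; edgeR adjusted p = 0.0106 and 0.00318). Among the most abundant of the set, Zfp451 had 704 ± 84.4 CPM in DKO, 759 ± 147 CPM in libraries labelled Gm1142 knockout and 825 ± 26.9 CPM in WT (SD, n = 3 each) and was called in no comparison. Zfp652 was lower in DKO than in the labelled group (659 ± 79.4 against 886 ± 121 CPM, SD, n = 3 each; log2 fold change -0.43, edgeR adjusted p = 0.0156), which was lost without replicate 2 of either group (adjusted p = 0.0791 without the DKO library and 0.0614 without the other). Of the exonic bases of Zfp652, 19.97% overlapped another gene.

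The corepressors through which KRAB proteins act, listed as 29 tested genes outside the set, moved in both directions: 6 were higher and 6 lower in DKO than in libraries labelled Gm1142 knockout (median 0.00), and 6 were higher and 4 lower in that group than in WT (median 0.18). Between the knockout groups that is 20.7% each way, where 9.07% of all genes tested were higher and 10.1% lower. Against WT it is 20.7% and 13.8%, where the shares were 10.2% and 8.38%. Their summed level was 3757 to 4037 CPM in DKO, 4787 to 5220 CPM in libraries labelled Gm1142 knockout and 3695 to 3876 CPM in WT. A sum is weighted to the abundant genes. In the labelled group over WT, 17 of the 29 had a positive and 12 a negative log2 fold change. Trim28, the KRAB partner itself, had 191 ± 13.6 CPM in DKO, 250.3 ± 10.7 CPM in libraries labelled Gm1142 knockout and 171 ± 21.3 CPM in WT (SD, n = 3 each). It was higher in the labelled group than in WT (0.55, edgeR adjusted p = 0.00293) under each library left out, and its call between the knockout groups (-0.39, adjusted p = 0.0266) was lost without DKO replicate 1 (0.0920) or without replicate 1 (0.0712) or 3 (0.0586) of the labelled group. Cbx3, which encodes HP1 gamma, was also highest in the labelled group, at 112 ± 11.3, 165 ± 14.8 and 113 ± 5.83 CPM in DKO, the libraries labelled Gm1142 knockout and WT (SD, n = 3 each; edgeR adjusted p = 0.00355 between the knockout groups and 0.00398 against WT). Setdb1, the methyltransferase, went the other way, at 179 ± 4.73 CPM in DKO, 135 ± 12 CPM in libraries labelled Gm1142 knockout and 186 ± 18.3 CPM in WT. Its calls (edgeR adjusted p = 0.0208 between the knockout groups and 0.0093 against WT) were lost without DKO replicate 1 (0.0631) or replicate 2 of the labelled group (0.0756), and without WT replicate 3 (0.0662). Against WT, Morc3 (lower) was lost whichever library was left out (edgeR adjusted p between 0.0502 and 0.16). Cbx5 (lower) was lost without replicate 2 or 3 of the labelled group or WT replicate 1 or 3. Atf7ip (lower) was lost without replicate 1 or 2 of either group. Hdac1 (higher) held only with WT replicate 3 left out, and Mta2 (higher) was lost without WT replicate 2. All 6 corepressors called higher between the knockout groups were lost with the GC and length trends removed (adjusted p between 0.121 and 0.470), as were 3 of the 4 lower against WT (0.0628 to 0.217).

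Of 58 tested Zfp genes below 5 CPM in WT, 8 were higher and 0 lower in DKO than in libraries labelled Gm1142 knockout, with a median log2 fold change of 0.79. The 8 are 13.8% of them, where 9.07% of all genes tested were higher and 10.1% lower. Genes low in WT could pass the count filter through another group, so this median is not comparable with that of the 279. Among genes with a WT mean of at least 5 CPM, 11 of 37 Zbtb genes, which pair zinc fingers with a BTB domain, were higher and 2 lower (median 0.45), and 7 of 19 Zscan and Zkscan genes, which pair them with a SCAN domain, were higher and 2 lower (median 0.27). Of 13 Klf genes 1 was higher and 1 lower (median 0.17), with 7 positive and 6 negative values. Over all tested genes at that level, 11.2% were higher and 11.3% lower (median 0.05). No test of a difference between these families and the 279 genes was made.

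Markers of some cell types also differed between the groups, and those of others did not. Against WT, libraries labelled Gm1142 knockout had 0 Leydig markers higher and 3 lower of 7. Sertoli markers had 1 higher and 5 lower of 15, and germ cell markers 2 higher and 1 lower of 16. Peritubular, endothelial and duct epithelium markers had 0 called there by edgeR, DESeq2 or limma-voom. Over all genes tested, 10.2% were higher and 8.38% lower against WT, and 9.07% and 10.1% between the knockout groups. Of 7 Leydig cell markers tested, 3 were higher and 0 lower in DKO than in libraries labelled Gm1142 knockout, and their summed level was 467 to 671 CPM in DKO, 292 to 396 CPM in libraries labelled Gm1142 knockout and 532 to 783 CPM in WT. Of 15 Sertoli cell markers, 7 were higher and 1 lower between the knockout groups, at summed levels of 1825 to 2366, 1817 to 1990 and 2014 to 2173 CPM in the same order. Of 16 germ cell markers, 8 were higher and 0 lower, at 802 to 1007, 476 to 586 and 518 to 609 CPM. Germ cell markers also differed between DKO and WT (3 of 16 higher), where 0.0464% of all genes tested were higher and 0.0464% lower. Peritubular markers had 0 of 9 called by edgeR (1 at an unadjusted p under 0.05, and 0 by DESeq2 or limma-voom), endothelial ones 1 higher and 1 lower of 6, macrophage and blood ones 2 lower of 10 and duct epithelium ones 1 lower of 8 between the knockout groups. No cell marker on these lists was at 0 in every library. Their part in the levels of the Zfp genes was not tested.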

How the data were processed

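Polyadenylated RNA was measured in 9 mouse testis libraries. The authors deposited raw read counts per gene by Ensembl identifier. Per the submitters' processing notes, cutadapt, Bowtie2, STAR and featureCounts were used with build mm39, and no versions are given. Strand, annotation release and the treatment of reads matching several genes are not given in the sources used here. From the counts, genes passing edgeR's filter (minimum count 10, minimum total 15) were tested with edgeR 4.0.16 in R 4.3.3: TMM scaling (factors 0.856 to 1.07), a quasi-likelihood F-test on all 9 libraries with 6 residual degrees of freedom, and Benjamini-Hochberg adjustment over 17251 genes at 0.05. CPM per library uses TMM-scaled totals, and shares and the 5 CPM rule use raw totals. Reads of genes without a symbol made up 0.411 to 0.510% of each library. A single read was worth well under 1 CPM, and 3 reads, the limit that a count of 0 allows, corresponded to 0.338 to 0.767 CPM. Such limits cover counting error only, as reads carried no molecular identifiers.

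The 279 genes, the gene lists and the tests were chosen with earlier results of these data known. Named genes were, per comparison, up to 12 called with the largest change each way whose groups did not overlap, the 8 most abundant per kilobase, those of 3 lists by role, those nearest the threshold, called genes of clusters with at least 4 of the set and called corepressors. Names and coordinates came from GENCODE M21 and promoters from RefSeq GRCm38.p6, both on GRCm38. No reference proteins were used, and KRAB and finger patterns were read from translated GENCODE transcripts. GC content and length were known for 97.4% of genes tested. No pair of libraries differed by as little as sampling noise. The fit was tested on simulated data. Alternatives were DESeq2 1.42.0, limma-voom (limma 3.58.1), other scalings, filters, member rules, a replicate block, GC and length trends, and leaving out each library. Leaving out both replicate 2 libraries was chosen after seeing the data.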

Additional observations from a re-analysis of the deposited data

How the results depend on the processing

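With the GC and length trends removed, the set of 279 had 23 genes higher and 41 lower in the libraries labelled Gm1142 knockout than in WT (median log2 fold change -0.19, against 0.13 with 17.1% higher and 6.53% lower over all tested genes with a WT mean of at least 5 CPM). Between the knockout groups it had 40 higher and 30 lower in DKO (median 0.15, against -0.15 with 5.31% higher and 19.1% lower). With a minimum 2-fold change, 4 were higher and 34 lower against WT, and 35 higher and 5 lower between the knockout groups. The share of all genes passing that cut is not given here, so these counts describe the set alone. Leaving out replicate 2 of DKO and of the libraries labelled Gm1142 knockout together gave 36 higher between the knockout groups (median 0.20). Of the tested genes with a WT mean of at least 5 CPM, 6.67% were then higher, with a median of 0.02. Leaving out single libraries gave 6 to 11 higher and 36 to 50 lower in the labelled group against WT (median -0.39 to -0.27), 0 called between DKO and WT (median -0.08 to 0.05), and 38 to 71 higher and 11 to 17 lower between the knockout groups (median 0.27 to 0.43). Over tested genes with a WT mean of at least 5 CPM, the single-library fits called 7.22 to 10.8% higher and 6.7 to 9.76% lower against WT. Between the knockout groups they called 6.87 to 11% of those genes higher and 7.65 to 11.1% lower. Why the counts moved was not tested, beyond the smaller number of samples in the fits that leave libraries out. Same-numbered libraries did not deviate together (correlations -0.252 to 0.097, against -0.171 to 0.15 for libraries of different number). No pairing by replicate number was seen, although weak correlations cannot show that libraries were unpaired. A fit with the replicate block called 11 higher and 53 lower against WT, 64 higher and 15 lower between the knockout groups and 0 between DKO and WT. It called 10.5% of tested genes with a WT mean of at least 5 CPM higher and 9.62% lower against WT. Between the knockout groups those shares were 9.88% and 10.4%, and between DKO and WT 0.0383% and 0.0536%. A fit without mitochondrially encoded genes called 13 higher and 62 lower against WT (median -0.33). Between the knockout groups it called 68 higher and 16 lower (median 0.36). In that fit, 11.3% of tested genes with a WT mean of at least 5 CPM were higher and 10.7% lower against WT. The shares between the knockout groups were 10.8% and 11.6%. Of 153 calls of named genes, DESeq2 kept 149, limma-voom 143 and the GC and length step 106, and none changed sign under any alternative. Choosing genes by a mean of at least 5 CPM in the 6 knockout libraries instead gave 264 genes, with 13 higher and 48 lower against WT and 66 higher and 16 lower between the knockout groups. Over all genes tested, 10.2% were higher and 8.38% lower against WT, and 9.07% and 10.1% between the knockout groups. Counts of under 10 reads per library, as in Zfp872, limit how well a level can be set.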
